A study of Mus musculus with 24 samples.

Results

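The genes described here are the hypoxia-inducible and glycolysis genes, a list of 37 symbols that holds the hypoxia-inducible factor gene Hif1a, its known feedback genes and targets, and the enzymes of glycolysis. Members were found as probe sets annotated to the symbol alone, and the brightest set per gene over all arrays was kept. That gave 35 of the 37 members among 19938 genes tested, while Gpi1 and Eno1 had no such set and were not analysed here. Of the 35, 16 serve glucose uptake or glycolysis (with the glycogen branching enzyme gene Gbe1) and 19 are other hypoxia-inducible or oxygen-sensing genes. The members were chosen with earlier results of these data known.

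Total RNA of D3 cells, an established mouse embryonic stem cell line, was hybridised to 24 whole-transcript arrays, 3 in each of 8 groups. Cells carried a scrambled control sequence (siSCR) or a knockdown of Prmt1 (siPRMT1), the arginine methyltransferase gene, and all had been passaged without feeder cells on gelatin. Each line was sampled as undifferentiated cells, as embryoid bodies at day 4 (aggregates grown without the cytokine LIF), and as embryoid bodies given the vehicle DMSO or all-trans retinoic acid (ATRA, 5 micromol) for 12 h. The labels call the 3 arrays of a group biological replicates and do not say how they were separated. The sources used here give neither the oxygen tension nor the number of clones per line. Values are deposited log2 signals, a difference is a log2 fold change ± standard error from 1 limma fit of 8 group means (n = 3 arrays per group), and a gene was called at an adjusted p under 0.05 over all genes.

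HIF-1 is a dimer of an alpha subunit, encoded by Hif1a, and the constant partner ARNT. With oxygen present, prolyl hydroxylases such as EGLN1 and EGLN3 mark the alpha subunit for destruction through VHL, so that its activity is set mainly on the protein, which arrays do not measure. When the subunit is spared, the dimer binds short sites with a CGTG core and raises glucose transporters, glycolytic enzymes, brakes on mitochondrial respiration, angiogenic factors and, as feedback, the hydroxylase genes themselves. Embryonic stem cells depend strongly on glycolysis.

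Start regions of the members were searched for the core of the hypoxia response element, because many members moved together in the comparisons below. RefSeq promoters (GRCm38.p6, 250 bases before to 50 after each annotated start) were found for 30 of the 35 members, and not for Slc2a3, Bnip3l, Ndufa4l2, Ndrg1 or Bhlhe40. The letters ACGTG, read on both strands, stood in at least 1 promoter of 21 of the 30 members (70%), against 3809 of 15614 measured genes with a promoter in the table (24.4%). GCGTG stood in 20 of the 30 (66.7%), against 44.4% of those genes. The list was drawn up from known targets, so these shares describe the choice of members, and a match of letters is not a bound site. CACGTG reads as ACGTG on both strands. Upstream stretches of 100 bases are shown for 5 members whose values follow, written 5′ to 3′ along the gene's strand with ACGTG or its reverse complement in capitals. They lie at chr7:138909563-138909662 (minus strand) for Bnip3, chrX:106186911-106187010 (plus) for Pgk1, chr8:124949271-124949370 (minus) for Egln1, chr12:54204025-54204124 (minus) for Egln3 and chr6:82774581-82774680 (minus) for Hk2.
Bnip3: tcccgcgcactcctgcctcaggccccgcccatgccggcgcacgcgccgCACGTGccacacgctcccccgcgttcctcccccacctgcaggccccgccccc
Pgk1: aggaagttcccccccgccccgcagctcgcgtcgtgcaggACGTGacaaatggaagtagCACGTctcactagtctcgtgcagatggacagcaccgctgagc
Egln1: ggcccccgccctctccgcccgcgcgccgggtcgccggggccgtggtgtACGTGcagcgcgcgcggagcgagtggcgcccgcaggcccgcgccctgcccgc
Egln3: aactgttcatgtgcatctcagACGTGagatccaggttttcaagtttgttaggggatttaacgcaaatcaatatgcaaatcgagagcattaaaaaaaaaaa
Hk2: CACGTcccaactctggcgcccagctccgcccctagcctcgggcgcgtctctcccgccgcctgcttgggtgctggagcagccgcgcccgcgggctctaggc
The first capital stood 108 bases before the start in Bnip3, 150 and 131 in Pgk1, 68 in Egln1, 229 in Egln3 and 226 in Hk2. A further Hk2 match, 52 bases before its start, lies outside the stretch shown. The Bnip3 match is a full CACGTG. Ldha, with 5 ACGTG matches over both strands in a promoter, was not called on embryoid body formation in either line. Pfkp, with 0, was called in both lines. Whether matches go with the changes was not tested.

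Prmt1 itself was left at 38.6% of its control level in undifferentiated cells, 64.6% at day 4, 46.2% with DMSO and 36.7% with ATRA. Of the siSCR arrays, the 6 from DMSO or ATRA treatment lay apart from all 18 others. Their SD over genes was 1.98 to 2.07, against 2.15 to 2.27, and they correlated with the 18 at 0.951 to 0.973, while replicates correlated at 0.99 to 0.999. Undifferentiated and day 4 arrays of both lines, and all siPRMT1 arrays, lie on one side of this border. Comparisons across it are given last. As a check of the labels, 8 markers of undifferentiated cells had a mean log2 signal of 12.44 to 12.49 in undifferentiated siSCR arrays and 12.45 to 12.52 at day 4, with 2 called higher and 1 lower. In siPRMT1 the mean was 12.61 to 12.66 and 12.30 to 12.32, with 0 called higher and 5 lower. Of 8 endoderm markers 7 rose in siSCR and 8 in siPRMT1, with a mean signal of 9.23 to 9.43 and 10.09 to 10.22 at day 4.

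Embryoid body formation raised most members in control cells and a minority of them in knockdown cells. In siSCR, 29 of the 35 members rose from undifferentiated cells to day 4, 1 fell (Pfkfb4, -0.28 ± 0.073) and 5 were not called. Over all genes 14.5% were called higher and 13.7% lower, 28.2% together. In siPRMT1, 9 members rose, 11 fell and 15 were not called, where 23% of all genes were higher and 18.4% lower, 41.4% together. The median change of the members was 0.42 in siSCR and -0.097 in siPRMT1, beside medians over all genes of 0.00067 and -0.043. The difference between the lines was tested as an interaction, and 25 members were called lower and 2 higher in it, against 8.83% and 15% of all genes (23.8% together). The responses of the lines share no array. Of the 29 members that rose in siSCR, 11 fell in siPRMT1 (37.9%), while of all 2891 genes that rose in siSCR 266 did (9.2%).

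**Figure D1:**
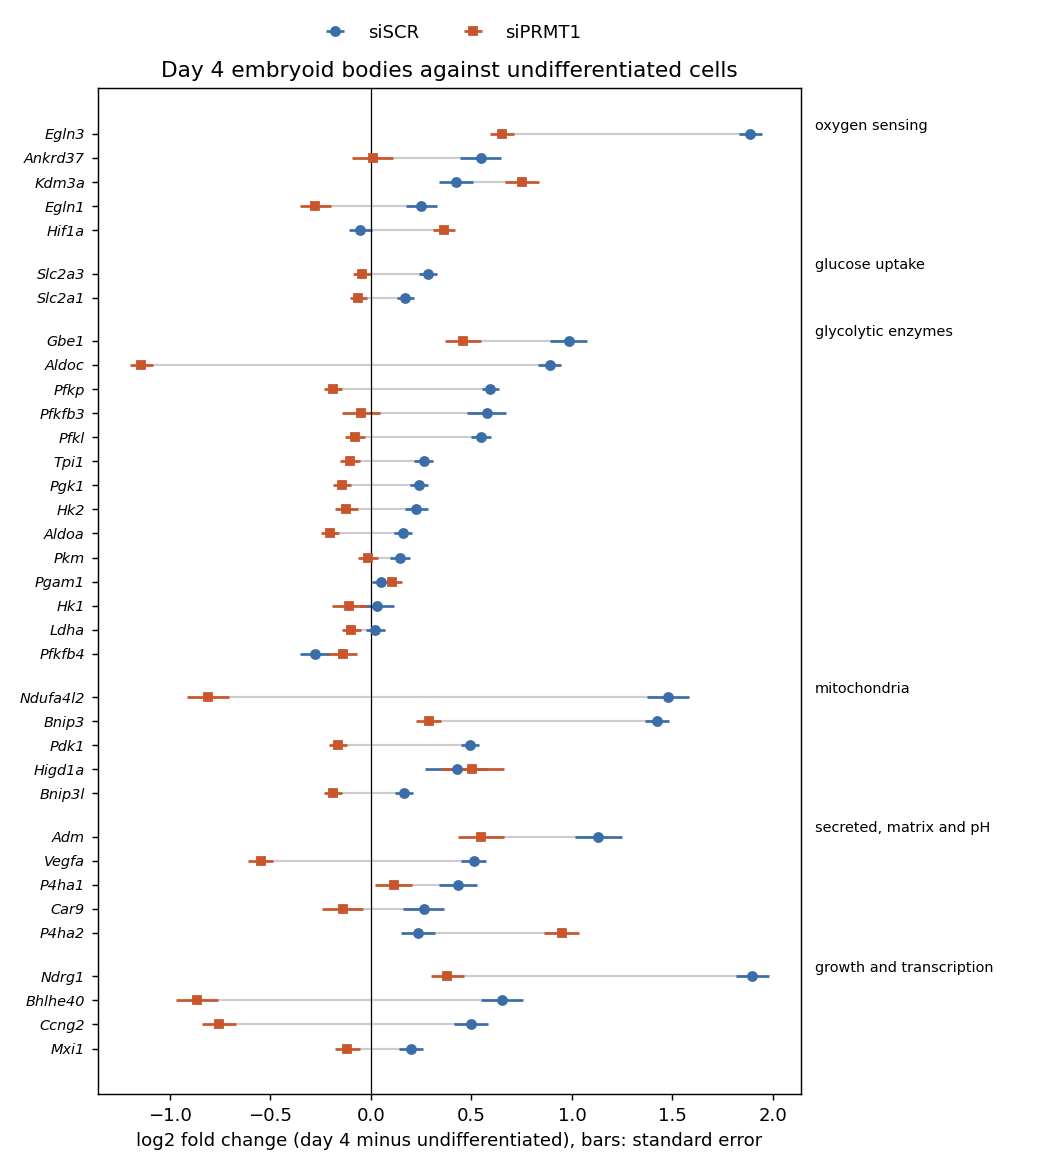
Log2 fold change from undifferentiated cells to day 4 embryoid bodies (x axis) for the 35 members (y axis, grouped by role), with circles for siSCR, squares for siPRMT1 and bars for the standard error (n = 3 arrays per group). The siSCR circles lie right of 0 for most members, up to 1.90 for Ndrg1, while the siPRMT1 squares lie on both sides, down to -1.14 for Aldoc.

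**Figure D2:**
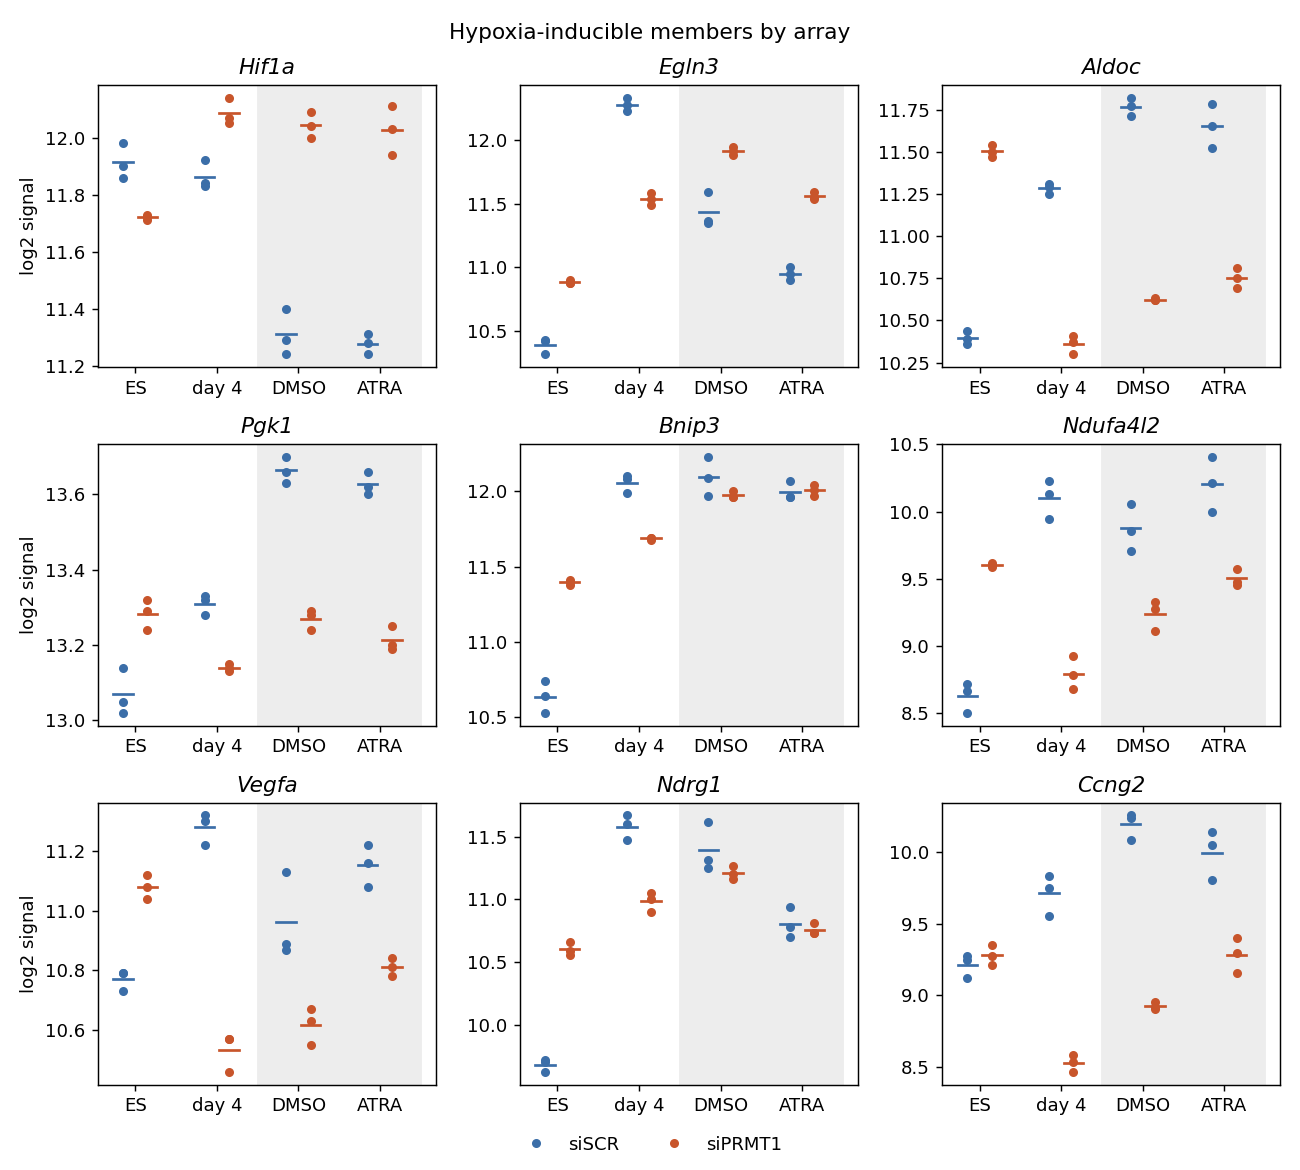
Log2 signal (y axis) of 9 members in each of the 24 arrays by state (x axis, ES for undifferentiated cells), with siSCR points left and siPRMT1 points right of each tick, bars for group means (n = 3 arrays), and grey for the states in which the siSCR arrays stood apart. Aldoc is lowest in undifferentiated siSCR arrays (10.44, 10.39 and 10.36) and in day 4 siPRMT1 arrays (10.37, 10.41 and 10.30).

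In the oxygen-sensing group, which also holds the HIF-induced Ankrd37, the rise was larger in siPRMT1 for Hif1a and larger in siSCR for Egln3. Hif1a, the alpha subunit gene, had log2 signals of 11.98, 11.90 and 11.86 in undifferentiated siSCR arrays and 11.84, 11.83 and 11.92 at day 4. In siPRMT1 the signals were 11.71, 11.72 and 11.73 and then 12.07, 12.05 and 12.14. The siSCR groups overlapped (-0.052 ± 0.055, adjusted p = 0.598), and the siPRMT1 arrays of day 4 all lay above the undifferentiated ones (0.37 ± 0.055), a difference of 0.42 ± 0.078 between the lines (limma adjusted p = 0.00047). Egln3, the hydroxylase gene known for its strong induction by HIF, rose less in siPRMT1 than in siSCR. Its signals were 10.42, 10.43 and 10.32 and then 12.23, 12.27 and 12.33 in siSCR, against 10.88, 10.88 and 10.90 and then 11.54, 11.58 and 11.49 in siPRMT1. The groups of each line did not overlap, and the rise was 3.7-fold in siSCR and 1.57-fold in siPRMT1 (difference -1.24 ± 0.083, adjusted p = 2.31e-09). Egln1, the main oxygen sensor among the hydroxylases, changed by 0.25 ± 0.078 in siSCR, a rise, and by -0.28 ± 0.078 in siPRMT1, a fall. Ankrd37, an ankyrin repeat gene induced by HIF, had signals of 8.10, 8.16 and 7.99 and then 8.55, 8.74 and 8.60 in siSCR. In siPRMT1 they were 7.89, 7.90 and 7.96 and 8.02, 7.92 and 7.84, which was not called (0.0094 ± 0.1). The histone demethylase gene Kdm3a rose in both lines, by 0.42 ± 0.086 and 0.75 ± 0.086, and its difference between them was not called (0.33 ± 0.12, adjusted p = 0.0564).

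Glucose transporters and glycolytic enzymes mostly rose in siSCR. Slc2a3, a high-affinity glucose transporter gene, had signals of 13.31, 13.28 and 13.24 and then 13.55, 13.57 and 13.55 in siSCR, and 13.35, 13.40 and 13.40 and 13.33, 13.40 and 13.30 in siPRMT1. Only the siSCR groups were separate there, and the rise of 0.28 ± 0.044 differed from that of siPRMT1 by -0.33 ± 0.063. Slc2a1, the other transporter gene, rose by 0.17 ± 0.042 in siSCR and was not called in siPRMT1 (-0.063 ± 0.042). Of the 14 enzymes (Gbe1 included), 10 rose and 1 fell in siSCR, and 1 rose and 4 fell in siPRMT1. The 35.7% called in siPRMT1 stood near the 41.4% of all genes, and the 78.6% in siSCR against 28.2%. Aldoc, an aldolase isoform, reversed its direction. Its signals were 10.44, 10.39 and 10.36 and then 11.31, 11.29 and 11.25 in siSCR, and 11.54, 11.47 and 11.50 and then 10.37, 10.41 and 10.30 in siPRMT1. Aldoc was thus 1.85-fold higher at day 4 in control cells and 2.21-fold lower in knockdown cells, a difference of -2.03 ± 0.082 (adjusted p = 3.65e-12).

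Hexokinase and phosphofructokinase genes moved less than Aldoc. Hk2, the inducible hexokinase gene, had signals of 10.64, 10.64 and 10.58 and then 10.82, 10.88 and 10.84 in siSCR, and 11.07, 10.98 and 11.05 and then 10.97, 11.00 and 10.76 in siPRMT1, where the groups overlapped. The phosphofructokinase genes encode the committed step of the pathway. Pfkl went from 11.44, 11.46 and 11.44 to 12.03, 12.00 and 11.95 in siSCR and from 12.05, 11.92 and 11.99 to 11.95, 11.94 and 11.84 in siPRMT1, a difference of -0.63 ± 0.072. Pfkp went from 11.74, 11.72 and 11.71 to 12.31, 12.34 and 12.31 in siSCR and from 12.09, 12.08 and 12.06 to 11.87, 11.93 and 11.86 in siPRMT1, a difference of -0.78 ± 0.061. Both genes rose in siSCR with no overlap of the groups, while in siPRMT1 Pfkp fell (-0.19 ± 0.043) and Pfkl was not called (-0.079 ± 0.051). Pfkfb3, whose enzyme makes the activator of phosphofructokinase, rose by 0.58 ± 0.096 in siSCR and was not called in siPRMT1 (-0.048 ± 0.096).

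Aldoa, the brighter aldolase gene, had signals of 13.42, 13.46 and 13.48 and then 13.62, 13.62 and 13.60 in siSCR. In siPRMT1 they were 13.56, 13.56 and 13.59 and then 13.39, 13.41 and 13.31, a difference of -0.36 between the lines. Like Aldoa, the enzymes that act after aldolase changed by less than Aldoc. These members were all brighter than Aldoc, and whether bright sets show smaller changes was not tested. Tpi1, the triose phosphate isomerase gene, had signals of 12.51, 12.59 and 12.56 and then 12.82, 12.83 and 12.79 in siSCR, against 12.70, 12.74 and 12.80 and then 12.59, 12.66 and 12.67 in siPRMT1. Pgk1, a phosphoglycerate kinase gene long used as a reporter of hypoxia, had 13.05, 13.14 and 13.02 and then 13.33, 13.32 and 13.28 in siSCR, against 13.29, 13.24 and 13.32 and then 13.13, 13.15 and 13.14 in siPRMT1. The siSCR groups of both genes were separate, day 4 being higher, and the differences between lines were -0.36 ± 0.07 and -0.38 ± 0.063. The lactate dehydrogenase gene Ldha was not called in either line (0.023 ± 0.047 and -0.097 ± 0.047), nor was Pgam1 (0.052 ± 0.046 and 0.11 ± 0.046). Gbe1, which branches glycogen, rose in both lines. Its signals were 8.57, 8.33 and 8.37 and then 9.27, 9.55 and 9.40 in siSCR, and 8.84, 8.70 and 8.69 and then 9.22, 9.24 and 9.15 in siPRMT1, so its difference was one of size (-0.53 ± 0.13). Hk1 needs a caution, since its brightest set lists 1 accession that is also listed for all 16 sets annotated to Rpl17 and Hk1 together. That set was not called in either line. The dimmer Hk1 set, which lists RefSeq transcripts and was looked at after seeing the data, changed by -0.064 ± 0.058 in siSCR and -0.85 ± 0.058 in siPRMT1, a difference of -0.79 ± 0.083 (adjusted p = 8.23e-07).

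The mitochondrial members included the widest gap between the lines. BNIP3 and its relative BNIP3L are receptors for the removal of mitochondria. Bnip3 had signals of 10.74, 10.53 and 10.64 and then 11.99, 12.10 and 12.08 in siSCR, and 11.41, 11.40 and 11.38 and then 11.69, 11.68 and 11.69 in siPRMT1. It rose in both lines with no overlap, 2.68-fold and 1.22-fold, and knockdown cells began higher and ended lower (difference -1.14 ± 0.087, adjusted p = 1.39e-08). Bnip3l had 12.85, 12.80 and 12.85 and then 12.96, 13.01 and 13.02 in siSCR, and 12.99, 13.01 and 12.96 and then 12.78, 12.81 and 12.81 in siPRMT1, a difference of -0.35 ± 0.065. Ndufa4l2, a HIF target whose protein lowers complex I activity, had 8.72, 8.50 and 8.66 and then 9.95, 10.13 and 10.23 in siSCR, and 9.59, 9.61 and 9.60 and then 8.78, 8.68 and 8.92 in siPRMT1. Its 2.78-fold rise in control cells stood against a 1.75-fold fall in knockdown cells. The difference of -2.29 ± 0.15 was the largest of the 35 members in size (adjusted p = 1.24e-09). Pdk1, the kinase gene that keeps pyruvate out of the mitochondrion, had 11.11, 11.06 and 11.02 and then 11.59, 11.52 and 11.56 in siSCR, and 11.63, 11.61 and 11.67 and then 11.44, 11.47 and 11.51 in siPRMT1. Its groups were separate in both lines and in opposite order (0.49 ± 0.046 and -0.16 ± 0.046). Higd1a, which encodes a small protein of the respiratory chain, rose by 0.43 ± 0.16 in siSCR and 0.50 ± 0.16 in siPRMT1, and the difference was not called (0.078 ± 0.22). With the mean of its probe sets Higd1a lost the siPRMT1 call (0.34, adjusted p = 0.0682).

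Among secreted and matrix genes, Vegfa reversed and the collagen hydroxylase gene P4ha2 did the opposite of most members. Vegfa, the angiogenic growth factor gene, had signals of 10.73, 10.79 and 10.79 and then 11.22, 11.30 and 11.32 in siSCR, and 11.08, 11.04 and 11.12 and then 10.57, 10.57 and 10.46 in siPRMT1. The groups were separate in both lines, with a 1.43-fold rise and a 1.46-fold fall (difference -1.06 ± 0.089). P4ha2 had 9.70, 9.80 and 9.83 and then 10.06, 10.06 and 9.92 in siSCR, and 9.67, 9.37 and 9.49 and then 10.49, 10.53 and 10.35 in siPRMT1. It rose in both lines, more in siPRMT1 (0.71 ± 0.12, adjusted p = 0.000173), and P4ha2 and Hif1a were the 2 members called higher in the interaction. Adm, the gene of the vasodilator adrenomedullin, rose by 1.13 ± 0.11 in siSCR and 0.55 ± 0.11 in siPRMT1. P4ha1 rose in siSCR (0.43 ± 0.093) and was not called in siPRMT1 (0.11 ± 0.093). The surface carbonic anhydrase gene Car9, a common hypoxia marker, was not called in either line (0.26 ± 0.1 and -0.14 ± 0.1). Car9 was dim, with group means of 6.19 to 6.57 below the lowest array median of 7.47, so a change could be missed. Adm also lay below that median in undifferentiated cells (6.97 in siSCR and 7.07 in siPRMT1).

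Of the growth and transcription genes all 4 rose in siSCR. Ndrg1, a stress-responsive gene induced by hypoxia, had signals of 9.63, 9.70 and 9.72 and then 11.47, 11.67 and 11.60 in siSCR, and 10.59, 10.56 and 10.66 and then 11.00, 11.05 and 10.90 in siPRMT1. The groups of each line were separate, and the 3.73-fold rise in control cells shrank to 1.3-fold (difference -1.52 ± 0.12). Bhlhe40, a repressor gene of the circadian and hypoxia response, had 9.57, 9.53 and 9.56 and then 10.12, 10.22 and 10.28 in siSCR, and 9.87, 9.78 and 9.84 and then 8.95, 8.96 and 8.99 in siPRMT1. Ccng2, the gene of an atypical cyclin that slows the cell cycle, had 9.28, 9.12 and 9.25 and then 9.55, 9.84 and 9.75 in siSCR, and 9.35, 9.28 and 9.21 and then 8.58, 8.53 and 8.46 in siPRMT1. Both reversed, with differences of -1.52 ± 0.15 and -1.25 ± 0.12. Mxi1, the MYC antagonist gene, rose by 0.20 ± 0.061 in siSCR and was not called in siPRMT1 (-0.12 ± 0.061).

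Some of these calls were lost when 1 array was left out. In siSCR the call was lost for Egln1 without undifferentiated siSCR replicates 2 or 3 or day 4 siSCR replicates 2 or 3 (0.22 to 0.24, adjusted p up to 0.0859), Mxi1 without undifferentiated siSCR replicate 2 or day 4 siSCR replicates 1 or 2 (0.18 to 0.19, adjusted p up to 0.0685), Pkm without undifferentiated siSCR replicates 1, 2 or 3 or day 4 siSCR replicates 1 or 3 (0.13 to 0.15, adjusted p up to 0.128), P4ha2 without undifferentiated siSCR replicates 1, 2 or 3 or day 4 siSCR replicates 1 or 2 (0.20 to 0.26, adjusted p up to 0.152) and Higd1a without undifferentiated siSCR replicates 2 or 3 or day 4 siSCR replicates 1, 2 or 3 (0.35 to 0.47, adjusted p up to 0.176). In siPRMT1 it was lost for Pgk1 without undifferentiated siPRMT1 replicate 3 (-0.12, adjusted p = 0.0706) and Higd1a without undifferentiated siPRMT1 replicate 3 (0.30, adjusted p = 0.126), and in the interaction for Car9 without undifferentiated siSCR replicates 1 or 3 or day 4 siSCR replicates 2 or 3 or undifferentiated siPRMT1 replicates 1 or 3 or day 4 siPRMT1 replicates 1, 2 or 3 (-0.43 to -0.32, adjusted p up to 0.138). With arrays scaled to one SD, Slc2a1 (0.14), Aldoa (0.13), Pkm (0.12), Bnip3l (0.14) and Higd1a (0.43) lost the siSCR call, and under quantile normalization Pfkfb4 (-0.21), P4ha2 (0.20) and Mxi1 (0.17) did, as did Slc2a1 (-0.15) in the interaction. Fibroblast and feeder markers fell with embryoid body formation in both lines, 13 and 14 of 16 lower and none higher. Their mean signal was 8.93 to 8.98 in undifferentiated and 7.79 to 7.92 in day 4 siSCR arrays, and 8.50 to 8.56 and 7.58 to 7.59 in siPRMT1, and their part in the results was not tested. Beside the 25 members lower in the interaction, 5 of 8 markers of undifferentiated cells were lower, 4 of 4 epiblast markers and 6 of 8 endoderm markers were higher, and their part was not tested either. In a mixed culture, fewer cells of a type and less RNA per cell cannot be told apart.

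Other genes of the pathway were listed by function, with earlier results of these data known. Of 31 other HIF targets, 18 rose and 6 fell in siSCR, 11 rose and 9 fell in siPRMT1, and the interaction called 16 lower and 2 higher. Over all genes the shares higher and lower were 14.5% and 13.7% in siSCR, 23% and 18.4% in siPRMT1, and 15% and 8.83% in the interaction. Ddit4, an mTOR brake induced by stress (-0.99 ± 0.089), Cox4i2, a cytochrome oxidase isoform gene (-0.84 ± 0.12), and Ero1a, an oxidase of protein folding (-0.82 ± 0.1), led the lower ones. Of 25 other genes of glycolysis and linked pathways measured, 9 were lower and 6 higher in the interaction. The list includes genes of glycogen, gluconeogenesis, lactate transport and pyruvate oxidation. The glycogen phosphorylase gene Pygl (-1.41 ± 0.098) and the phosphoglucomutase gene Pgm1 (-1.20 ± 0.1) led the lower ones. Of 14 HIF regulators, 3 were lower and 4 higher. Hif3a, whose products include inhibitors of HIF, differed by -1.07 ± 0.12, while Hif1an, the asparaginyl hydroxylase gene that blocks HIF activity, differed by 0.47 ± 0.11.

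The same arrays compared between lines show where the gap opened. In undifferentiated cells, 16 of the 35 members were higher in siPRMT1, 2 were lower and 17 were not called, against 7.63% of all genes higher and 11.2% lower (18.8% together). At day 4, 2 members were higher, 19 lower and 14 not called, against 11.4% and 7.01% (18.4% together). The medians of the members were 0.15 and -0.20, and those of all genes 0.0061 and -0.016. These comparisons share no array with each other, but both enter the interaction above. Of the 16 members higher in undifferentiated cells 10 were lower at day 4 and none was higher. Over all genes, 391 of 1522 (25.7%) were lower at day 4 and 208 (13.7%) higher. Hif1a and P4ha2 went the opposite way, lower first (-0.20 ± 0.055 and -0.27 ± 0.085) and then higher (0.22 ± 0.055 and 0.44 ± 0.085).

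**Figure D3:**
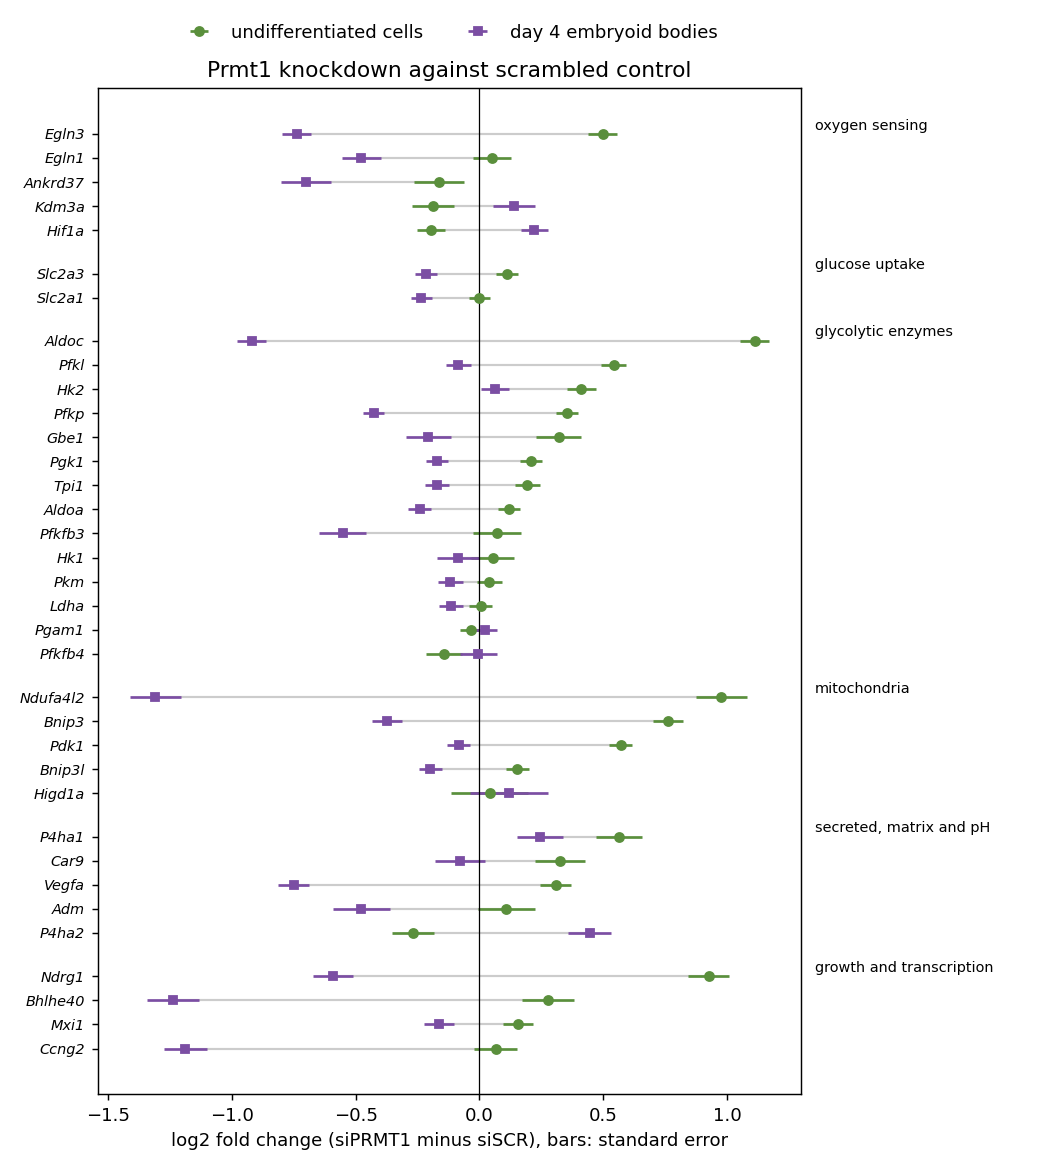
Log2 fold change of siPRMT1 over siSCR (x axis) for the 35 members (y axis, grouped by role), with circles for undifferentiated cells, squares for day 4 embryoid bodies and bars for the standard error (n = 3 arrays per group). For most members the circle lies right of the square, and the gap is widest for Ndufa4l2, from 0.98 to -1.31.

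By role, 7 of 14 glycolytic enzymes (Gbe1 included) and 4 of 5 mitochondrial members were higher in undifferentiated siPRMT1 cells. So were 3 of 5 secreted, matrix and pH members, where 7.63% of all genes were higher. Of 5 members in the oxygen-sensing group 1 was higher and 1 lower, and of 4 growth and transcription genes 1 was higher. No glucose transporter was called. After Aldoc (1.11 ± 0.058) the enzymes with the largest differences were Pfkl (0.54 ± 0.051), Hk2 (0.41 ± 0.057) and Pfkp (0.35 ± 0.043), all with siPRMT1 arrays above every siSCR array. Ndufa4l2 (0.98 ± 0.1), Bnip3 (0.76 ± 0.062), Pdk1 (0.57 ± 0.046), P4ha1 (0.56 ± 0.093), Egln3 (0.50 ± 0.059) and Ndrg1 (0.93 ± 0.082) led the other members. At day 4, where 7.01% of all genes were lower, the lower members came from every role. They were 3 of 5 in the oxygen-sensing group (Egln1, Egln3 and Ankrd37), both glucose transporters, 6 of 14 enzymes and 3 of 5 mitochondrial members. Also lower were 2 of 5 secreted, matrix and pH members and 3 of 4 growth and transcription genes. Ndufa4l2 (-1.31 ± 0.1), Bhlhe40 (-1.24 ± 0.1), Ccng2 (-1.19 ± 0.086) and Aldoc (-0.92 ± 0.058) differed most. Vegfa (-0.75 ± 0.063), Egln3 (-0.74 ± 0.059), Ankrd37 (-0.70 ± 0.1), Ndrg1 (-0.59 ± 0.082), Pfkfb3 (-0.55 ± 0.096), Adm (-0.48 ± 0.11) and Pfkp (-0.43 ± 0.043) followed. Pdk1 (-0.084 ± 0.046), Hk2 (0.063 ± 0.057) and Pfkl (-0.085 ± 0.051) were not called at day 4.

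Both members lower in undifferentiated cells lost that call with arrays centred on their medians (Hif1a -0.14, P4ha2 -0.22), and when 1 array was left out: Hif1a without undifferentiated siSCR replicate 1 (-0.16, adjusted p = 0.0832) and P4ha2 without undifferentiated siSCR replicates 2 or 3 or undifferentiated siPRMT1 replicates 2 or 3 (-0.26 to -0.20, adjusted p up to 0.176). So did Tpi1 without undifferentiated siPRMT1 replicate 3 (0.17, adjusted p = 0.0506), Gbe1 without undifferentiated siSCR replicates 2 or 3 or undifferentiated siPRMT1 replicate 1 (0.27 to 0.29, adjusted p up to 0.08), Bnip3l without undifferentiated siSCR replicate 2 or undifferentiated siPRMT1 replicates 1 or 2 (0.14 to 0.15, adjusted p up to 0.0855) and Car9 without undifferentiated siSCR replicates 1 or 3 or undifferentiated siPRMT1 replicates 1 or 3 (0.24 to 0.31, adjusted p up to 0.171), and at day 4 Tpi1 without day 4 siSCR replicate 2 or day 4 siPRMT1 replicate 1 (-0.16 to -0.15, adjusted p up to 0.0975). Fibroblast and feeder markers were lower in siPRMT1 in both states (11 and 7 of 16), endoderm markers were higher at day 4 (7 of 8), as were epiblast markers (4 of 4). Markers of undifferentiated cells moved in the direction of most members, with 4 of 8 higher in undifferentiated siPRMT1 cells and 4 of 8 lower at day 4. For each of these marker lists the part in the results was not tested. At day 4, Hif1a lost its call with arrays scaled to one SD (0.15, adjusted p = 0.0513), and Pgk1 with only the groups compared (-0.17, adjusted p = 0.0503).

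In undifferentiated cells, 14 of 31 other HIF targets were higher in siPRMT1 and 5 lower, where 7.63% and 11.2% of all genes were. The higher ones included Stc2 (0.38 ± 0.087) and Cox4i2 (0.36 ± 0.086), and Tgfb3 (-0.89 ± 0.073), Lox (-0.64 ± 0.14) and Stc1 (-0.60 ± 0.096) led the lower ones. Lox encodes a collagen crosslinking enzyme and is also typical of fibroblasts, whose part in its lower signal was not tested. At day 4, where 11.4% of all genes were higher and 7.01% lower, 13 of the 31 were lower, led by Ddit4 (-0.71 ± 0.063), Stc1 (-0.62 ± 0.096) and Ero1a (-0.52 ± 0.072), and Plod2 was higher (0.39 ± 0.09). Of the 25 other genes of glycolysis and linked pathways, 9 were higher and 2 lower in undifferentiated siPRMT1 cells. In front were the PEP carboxykinase gene Pck2 (0.68 ± 0.069), Pygl (0.66 ± 0.069) and the pyruvate dehydrogenase kinase gene Pdk4 (0.60 ± 0.064), which are not glycolytic enzymes. At day 4, 7 of the 25 were higher and 7 lower, with Pgm1 (-0.81 ± 0.074), Pygl (-0.76 ± 0.069) and the enolase gene Eno2 (-0.57 ± 0.086) lowest. HIF regulators were 2 higher of 14 in undifferentiated cells, Hif3a (0.48 ± 0.082) and the HIF-2 alpha subunit gene Epas1 (0.26 ± 0.069). At day 4, 5 were higher and 2 lower, with Hif1an (0.66 ± 0.078) and Epas1 (0.51 ± 0.069) up and Hif3a (-0.59 ± 0.082) down.

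ATRA for 12 h changed a minority of the members. The 8 called in both lines moved the same way in each, as most genes called in both did. Over all genes, 641 rose and 673 fell in both lines, while 21 rose in siSCR and fell in siPRMT1 and 15 did the reverse. Against DMSO, 4 members rose and 8 fell in siSCR, and 5 rose and 5 fell in siPRMT1. Of all genes 11.2% rose and 12.2% fell in siSCR, and 6.05% rose and 5.94% fell in siPRMT1. In either direction 34.3% of the members stood against 23.4% of all genes in siSCR, and 28.6% against 12% in siPRMT1. Egln3, Ndrg1, Adm, Pdk1 and Pfkp fell in both lines, and Slc2a1, Vegfa and Bhlhe40 rose in both. By call, Hk2, Pfkfb3 and Bnip3l fell and Ndufa4l2 rose in siSCR alone, and Kdm3a and Ccng2 rose in siPRMT1 alone, of which the test between lines called Ccng2. With arrays centred on their medians, Slc2a1 (0.053, adjusted p = 0.401), Vegfa (0.13, adjusted p = 0.128) and Bhlhe40 (0.23, adjusted p = 0.119) lost the siSCR call, and Vegfa lost the siPRMT1 call too (0.15, adjusted p = 0.116). With arrays scaled to one SD, Pfkp (-0.14, adjusted p = 0.052) and Pdk1 (-0.12, adjusted p = 0.0795) lost the siSCR call, and Pfkp (-0.13, adjusted p = 0.107) and Vegfa (0.20, adjusted p = 0.0634) the siPRMT1 call. Epiblast markers fell with ATRA (2 of 4 in siSCR, 4 of 4 in siPRMT1), as did 3 of 8 markers of undifferentiated cells in siSCR and 3 of 8 in siPRMT1, and their part in the members' changes was not tested.

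The largest falls called in both lines were in Ndrg1, Adm and Egln3. Ndrg1 signals were 11.62, 11.25 and 11.31 with DMSO and 10.94, 10.78 and 10.70 with ATRA in siSCR, and 11.20, 11.27 and 11.16 and then 10.73, 10.73 and 10.81 in siPRMT1. Adm signals were 8.85, 8.56 and 8.59 and 7.69, 7.82 and 8.29 in siSCR, and 8.38, 8.43 and 8.45 and 8.09, 7.94 and 7.99 in siPRMT1. In both genes and both lines every ATRA array lay below every DMSO array. The changes were -0.59 ± 0.082 and -0.45 ± 0.082 for Ndrg1 and -0.73 ± 0.11 and -0.41 ± 0.11 for Adm. Egln3 signals were 11.59, 11.35 and 11.36 and 11.00, 10.90 and 10.95 in siSCR, and 11.88, 11.91 and 11.94 and 11.55, 11.54 and 11.59 in siPRMT1, changes of -0.48 ± 0.059 and -0.35 ± 0.059. Egln3 was also the member called in siSCR that kept its call in all 16 alternatives tried. Bhlhe40, known to be induced by retinoic acid, had signals of 10.26, 9.78 and 9.94 and 10.36, 10.02 and 10.47 in siSCR, and 9.55, 9.59 and 9.50 and 10.25, 10.31 and 10.07 in siPRMT1. The siSCR groups overlapped (0.29 ± 0.1, adjusted p = 0.0498) and the siPRMT1 groups did not (0.66 ± 0.1, adjusted p = 0.000118). Slc2a1 rose by 0.32 ± 0.042 in siPRMT1 and by 0.12 ± 0.042 in siSCR, and Kdm3a by 0.42 ± 0.086 in siPRMT1. The difference of Kdm3a between lines was not called (0.24 ± 0.12, adjusted p = 0.326). Hif1a itself did not pass the test in either line (-0.029 ± 0.055 and -0.015 ± 0.055).

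**Figure D4:**
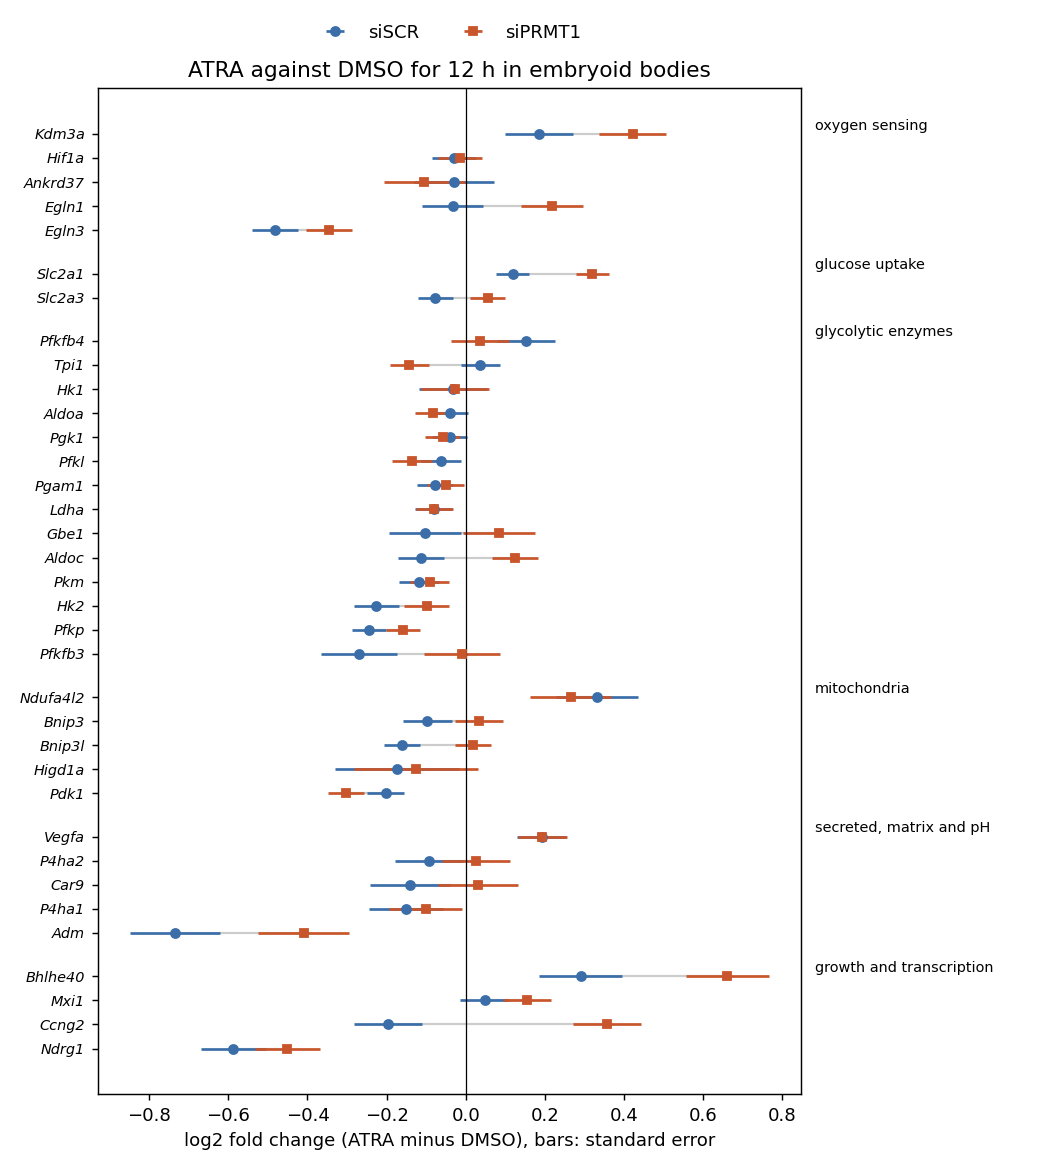
Log2 fold change of embryoid bodies with ATRA over those with DMSO for 12 h (x axis) for the 35 members (y axis, grouped by role), with circles for siSCR, squares for siPRMT1 and bars for the standard error (n = 3 arrays per group). Most points lie close to 0, with Adm and Ndrg1 farthest left and Bhlhe40 in siPRMT1 farthest right (0.66).

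Only Ccng2 was called in the test of the ATRA response between lines. Its signals were 10.26, 10.09 and 10.24 with DMSO and 10.14, 10.05 and 9.80 with ATRA in siSCR, where the groups overlapped, and 8.92, 8.95 and 8.91 and 9.40, 9.30 and 9.16 in siPRMT1, where they did not. The difference was 0.55 ± 0.12 (adjusted p = 0.0142), 1 of 35 members beside 3.24% of all genes (1.92% higher and 1.32% lower), and the call was lost for Ccng2 without ATRA siPRMT1 replicate 1 (0.50, adjusted p = 0.0546). In the same test 3 of 4 epiblast markers were lower, and their part was not tested. In siSCR, with only the groups compared, 1 of the 12 calls was made. Leaving out siSCR DMSO replicate 3 left 7 calls. The siSCR calls lost without 1 array were Slc2a1 without DMSO siSCR replicates 1, 2 or 3 or ATRA siSCR replicates 1, 2 or 3 (0.11 to 0.13, adjusted p up to 0.0987), Pfkfb3 without DMSO siSCR replicates 1 or 3 or ATRA siSCR replicates 2 or 3 (-0.30 to -0.16, adjusted p up to 0.244), Bnip3l without DMSO siSCR replicate 3 or ATRA siSCR replicate 3 (-0.14, adjusted p up to 0.0595), Ndufa4l2 without DMSO siSCR replicates 2 or 3 or ATRA siSCR replicate 3 (0.23 to 0.32, adjusted p up to 0.124), Vegfa without DMSO siSCR replicates 2 or 3 or ATRA siSCR replicates 1 or 2 (0.15 to 0.19, adjusted p up to 0.135) and Bhlhe40 without DMSO siSCR replicates 2 or 3 or ATRA siSCR replicates 1 or 3 (0.18 to 0.26, adjusted p up to 0.242). In siPRMT1 they were Pfkp without DMSO siPRMT1 replicates 1, 2 or 3 or ATRA siPRMT1 replicates 1 or 3 (-0.16 to -0.15, adjusted p up to 0.0664), Vegfa without DMSO siPRMT1 replicates 1, 2 or 3 or ATRA siPRMT1 replicates 1, 2 or 3 (0.16 to 0.22, adjusted p up to 0.208), Adm without DMSO siPRMT1 replicates 2 or 3 or ATRA siPRMT1 replicates 2 or 3 (-0.40 to -0.38, adjusted p up to 0.0832) and Ccng2 without ATRA siPRMT1 replicate 1 (0.30, adjusted p = 0.0507).

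The step from untreated day 4 to DMSO embryoid bodies, within siPRMT1, called few genes, and members were 7 of them. All 7 rose: Adm (0.80 ± 0.11), Bhlhe40 (0.58 ± 0.1), Ccng2 (0.40 ± 0.086), Egln3 (0.37 ± 0.059), Bnip3 (0.29 ± 0.062), Aldoc (0.26 ± 0.058) and Tpi1 (0.25 ± 0.049). Over all genes 92 were called (0.461%), 61 of them higher (0.306%) and 31 lower (0.155%). The arrays of all 7 were separate, the DMSO arrays being higher. Of 8 endoderm markers 3 were also called higher (37.5%, against 20% of the members), and their part was not tested. The number of calls was sensitive to the arrays. Leaving out any of the 3 day 4 arrays, or DMSO replicate 1 or 2, left 2 calls, and leaving out DMSO replicate 3 left 3. Adm and Egln3 kept their calls in all 17 alternatives, and the other 5 lost theirs in some. The sources used here do not say whether untreated and DMSO embryoid bodies were collected at the same age.

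Knockdown comparisons with DMSO and ATRA, which cross the border, gave shares near the background over both directions, and with DMSO a smaller share of members than of all genes was higher. With DMSO, 21 of 35 members (60%) were called between siPRMT1 and siSCR, 5 higher and 16 lower, where 65.9% of all genes were called, 31.3% higher and 34.6% lower. With ATRA, 25 of 35 (71.4%) were called, 9 higher and 16 lower, where 70.1% of all genes were, 32.2% higher and 38% lower. The step from day 4 to DMSO in siSCR called 22 members (62.9%), 14 higher and 8 lower, where 61.1% of all genes were called, 30.8% higher and 30.3% lower. The difference of that step between the lines called 15 members higher and 9 lower, 68.6% in all, where 44.6% of all genes were called, 25.1% higher and 19.5% lower. Hk2 had signals of 12.21, 12.29 and 12.32 with DMSO and 12.04, 12.02 and 12.08 with ATRA in siSCR, and 10.97, 10.95 and 10.94 and 10.84, 10.92 and 10.82 in siPRMT1. Ankrd37 had 9.27, 9.44 and 9.27 and 9.61, 9.07 and 9.20 in siSCR, and 8.09, 7.91 and 8.17 and 7.97, 7.89 and 7.99 in siPRMT1. In both genes every siPRMT1 array lay below every siSCR array of the same treatment, with differences of -1.32 ± 0.057 and -1.19 ± 0.057 for Hk2 and -1.27 ± 0.1 and -1.34 ± 0.1 for Ankrd37.

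Hif1a and Bnip3l went the other way. Hif1a had 11.29, 11.40 and 11.24 with DMSO and 11.28, 11.31 and 11.24 with ATRA in siSCR, and 12.04, 12.00 and 12.09 and 12.03, 12.11 and 11.94 in siPRMT1. Bnip3l had 12.03, 11.98 and 12.08 and 11.84, 11.94 and 11.82 in siSCR, and 12.89, 12.80 and 12.84 and 12.86, 12.84 and 12.89 in siPRMT1. Both were higher in every siPRMT1 array, by 0.73 ± 0.055 and 0.75 ± 0.055 for Hif1a and 0.81 ± 0.046 and 0.99 ± 0.046 for Bnip3l. Aldoc was lower with DMSO and with ATRA (-1.14 ± 0.058 and -0.90 ± 0.058), as at day 4, and so were Ccng2 (-1.27 ± 0.086 and -0.71 ± 0.086), Ndufa4l2 (-0.64 ± 0.1 and -0.70 ± 0.1) and Vegfa (-0.34 ± 0.063 and -0.34 ± 0.063). Egln3, lower at day 4, was higher here (0.47 ± 0.059 and 0.61 ± 0.059), though with arrays scaled to one SD its DMSO call was lost (0.14, adjusted p = 0.0589). Higd1a differed by -0.77 ± 0.16 with DMSO in its brightest set, whose values correlated with those of its other set at 0.523 over the 24 arrays. The labels give no batch, so line and border cannot be told apart in these comparisons.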

How the data were processed

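The table deposited by the authors holds 1 log2 value per probe set and array. Values ran from 2.14 to 14.5, which is why log2 was taken as their scale. The sources used here do not state the summarisation or normalization of probes. Array medians ran from 7.47 to 7.67, no 2 arrays were identical, and detection calls were not used here. Of 35556 probe sets, 21789 had 1 gene symbol, 1621 several and 12146 none in the platform annotation. For genes with several single-symbol sets the brightest was kept, which left 19938 genes.

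The members and lists were chosen with earlier results of these data known. limma 3.58.1 in R 4.3.3 fitted 8 group means to 24 arrays (16 residual degrees of freedom), and 13 contrasts were adjusted by Benjamini and Hochberg over all genes. Arrays number 3 per group, which limits the precision: the median standard error was 0.0932, and 0.132 for interactions. P-values measure the spread between these samples, which may be technical. Members were named per role by size among those called, and signals per array are given for members called in at least 3 of the 4 knockdown comparisons or with an interaction of at least 1 on embryoid body formation, for Hif1a, and for others where a sentence turns on them. Simulated data with known answers (10 draws, 200 of 19938 genes changed) were used as a test: for a comparison of 3 against 3 arrays (knockdown in undifferentiated cells) it recovered 83.9% of 1.5-fold and 98.7% of 2-fold changes, with 5.31% of calls on unchanged genes. For the interaction of knockdown and embryoid body formation the recovered shares were 58.9% (1.5-fold) and 90.3% (2-fold), and 5.78% of calls fell on unchanged genes. The draws held independent normal noise and changed far fewer genes than the 18.8% and 23.8% called in the data. The shares therefore need not hold for these arrays. Alternatives were a replicate block, only the groups compared, no arrays from siSCR DMSO and ATRA, quantile normalization, median centring, one SD, no dimmest 25% of genes, the mean of a gene's sets, trend and robust variance, array weights, and each array left out. The other set for Hk1 was added after seeing the data.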

Additional observations from a re-analysis of the deposited data

Results flagged for a closer look

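The response to embryoid body formation differed between the lines, by the interaction test, in 27 members. As the siPRMT1 change minus the siSCR change in log2, the values below 0 were Ndufa4l2 (-2.29), Aldoc (-2.03), Ndrg1 (-1.52), Bhlhe40 (-1.52), Ccng2 (-1.25), Egln3 (-1.24), Bnip3 (-1.14), Vegfa (-1.06), Pfkp (-0.78), Pdk1 (-0.65), Pfkl (-0.63), Pfkfb3 (-0.62), Adm (-0.59), Ankrd37 (-0.54), Egln1 (-0.53), Gbe1 (-0.53), Car9 (-0.40), Pgk1 (-0.38), Tpi1 (-0.36), Aldoa (-0.36), Bnip3l (-0.35), Hk2 (-0.35), Slc2a3 (-0.33), Mxi1 (-0.32) and Slc2a1 (-0.23). Those above 0 were P4ha2 (0.71) and Hif1a (0.42).

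The ATRA response differed between the lines in Ccng2 (0.55).

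The step from untreated day 4 to DMSO differed between the lines in 24 members, and the siSCR side of that test crosses the border between the 6 arrays and the other 18. The values below 0 were Hk2 (-1.38), Higd1a (-0.88), Ankrd37 (-0.57), Pfkl (-0.45), Pfkp (-0.43), P4ha2 (-0.34), Pkm (-0.33), Pgk1 (-0.22) and Aldoc (-0.22). The values above 0 were Egln3 (1.21), Bnip3l (1.01), Bhlhe40 (0.79), Ndufa4l2 (0.67), Egln1 (0.56), Pgam1 (0.55), Gbe1 (0.53), Hif1a (0.51), Vegfa (0.41), Ndrg1 (0.41), Bnip3 (0.25), Tpi1 (0.24), Mxi1 (0.23), Aldoa (0.18) and Ldha (0.18). Of all genes 44.6% were called in this test. Of the 24 calls 12 were lost in at least 1 alternative, among them Higd1a with the mean of its probe sets (-0.48, adjusted p = 0.0606).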

How the results depend on the processing

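Counts of members called in the 4 knockdown comparisons, the 2 of embryoid body formation and their interaction stayed within 1.5 times under each alternative that could be run; the replicate block moved them to 18, 21, 22, 24, 30, 20 and 27. With the block 5 member calls were lost and 2 gained over all 13 comparisons. The labels do not say whether same-numbered arrays of different groups belong together. Of 84 such pairs 23 correlated above 0.1 (median 0.0122, range -0.502 to 0.606), and 11 of 24 arrays correlated best with their own number. Pairs with different numbers were not summarised, so these values cannot decide on pairing. ATRA against DMSO in siSCR gave 12 calls, 4 with array weights, 1 with only the groups compared, and 7 to 12 with 1 array left out. In siPRMT1 it gave 10 calls, 21 with array weights. DMSO against day 4 in siPRMT1 gave 7 calls, 4 with one SD, 11 with trend and robust variance, 17 with array weights, and 2 to 3 with 1 array left out. The ATRA interaction gave 1 call (Ccng2), 0 with only the groups compared, 2 without the dimmest genes, 4 with trend and robust variance, 2 with array weights, and 0 to 2 with 1 array left out. With 1 array left out, counts were 15 to 16 for the knockdown in undifferentiated cells, 20 to 21 at day 4, 20 to 24 with DMSO, 20 to 25 with ATRA, 26 to 28 for embryoid body formation in siSCR, 18 to 21 in siPRMT1, 26 to 28 for their interaction, 7 to 8 for ATRA in siPRMT1, 21 to 24 for the DMSO step in siSCR and 19 to 22 for its interaction. With the Hk1 set that lists RefSeq transcripts, 7 further calls were made, all of Hk1.

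Reversals occurred only under quantile normalization or one SD and only in comparisons across the border; the cause was not tested. Under one SD these were, for the knockdown with DMSO, Tpi1 (-0.38, adjusted p = 0.000142), Ldha (-0.45, adjusted p = 8.07e-07) and P4ha1 (-0.31, adjusted p = 0.0111), with ATRA, Slc2a1 (-0.57, adjusted p = 3.80e-08), Ldha (-0.56, adjusted p = 3.40e-08), Bnip3 (-0.44, adjusted p = 7.17e-06), P4ha1 (-0.31, adjusted p = 0.009) and P4ha2 (-0.032, adjusted p = 0.76), for the DMSO step in siSCR, Slc2a1 (0.41, adjusted p = 4.24e-06), Aldoa (0.37, adjusted p = 7.13e-05), Pgam1 (0.036, adjusted p = 0.651) and Ldha (0.44, adjusted p = 1.10e-06), and for its interaction, Slc2a1 (-0.31, adjusted p = 0.00496), Aldoa (-0.24, adjusted p = 0.0481), Tpi1 (-0.14, adjusted p = 0.317), Ldha (-0.25, adjusted p = 0.0183) and Bnip3 (-0.068, adjusted p = 0.606). Under quantile normalization they were Mxi1 (-0.25, adjusted p = 0.00279) with DMSO, Bnip3 (-0.21, adjusted p = 0.00315), Car9 (0.23, adjusted p = 0.0314), P4ha2 (-0.088, adjusted p = 0.349) and Mxi1 (-0.17, adjusted p = 0.0297) with ATRA, Mxi1 (0.048, adjusted p = 0.557) for the DMSO step in siSCR and Mxi1 (-0.033, adjusted p = 0.809) for its interaction. Median centring put the median of all genes at -0.178 for the knockdown with DMSO, -0.174 with ATRA, 0.16 for the DMSO step in siSCR and -0.128 for its interaction. Leaving out the 6 arrays that lay apart was possible only for comparisons that do not use them.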
